A study of Homo sapiens with 21 samples.

Results

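The mitochondrial chromosome held 248 of the 778762 HNRNPK binding sites in the 4 libraries of this study. Its sites were taken by position: every cluster placed on the mitochondrial chromosome, on either strand, was kept, whatever its number of reads. A cluster is a stretch of overlapping reads in which thymidines were read as cytidines. Such T-to-C changes mark where 4-thiouridine (4SU), a photoreactive uridine analog taken up by the cells, was crosslinked to the immunoprecipitated protein.

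The cells were MDA-MB-231, a triple-negative breast cancer line, either parental or with *KRT19*, the gene of the intermediate filament protein keratin 19, knocked out by CRISPR/Cas9 (*KRT19* KO). Both lines were given 4SU and ultraviolet light, and HNRNPK, a poly(C)-binding protein that moves between nucleus and cytoplasm, was immunoprecipitated from a cytoplasmic or a nuclear fraction with an anti-HNRNPK/J antibody (PAR-CLIP). Each of the 4 conditions, the cytoplasmic and the nuclear fraction of either line, was 1 library. Where 4 values follow each other below, they are those of parental cytoplasm, *KRT19* KO cytoplasm, parental nuclei and *KRT19* KO nuclei, called the usual order. The study asked whether the levels of RNAs bound by HNRNPK change when keratin 19 is lost. With 1 library per condition no test between conditions was made, differences between cell lines were not separated from differences between preparations, and values below carry exact 95% binomial intervals that cover counting error only.

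The human mitochondrial genome is a small circle inside the organelle. It encodes 13 proteins of the respiratory chain and the ATP synthase, 2 ribosomal RNAs (rRNAs) and 22 transfer RNAs (tRNAs). Both strands are transcribed as long precursors, which are cut at the tRNAs. Most genes lie on the plus strand of the reference, whose RNA is rich in cytosine. Mitochondria stay outside the nucleus, and pieces of their genome have been copied into the chromosomes, where reads of mitochondrial RNA can also be placed.

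The windows below are shown because they lie in the sites with the most reads and because HNRNPK is known for binding runs of cytosine. Each is the 30-nt window with the most cytosines in the cluster with the most reads of its site, so its cytosine content was chosen and is no finding. The MT-ND1 window lies in a 715-nt cluster whose reported mode, position 3108, is in MT-RNR2. How many of its reads cover the window was not tested. Capitals mark runs of 3 or more cytosines, and all windows are on the plus strand of GRCh37 (hg19).
MT-ND1, chrM:3565-3594: aCCCCCCtCCCCataCCCaaCCCCCtggtc
MT-RNR2, chrM:2234-2263: CCCaaacatataactgaactcctcacaCCC
MT-ND2, chrM:4879-4908: CCCCCatctcaatcatataccaaatctctc
MT-ND4, chrM:11048-11077: tctatactaatctCCCtacaaatctcctta
MT-ND5, chrM:12374-12403: cttCCCtaattCCCCCCatccttaccaCCC
MT-ATP6, chrM:8922-8951: cacacctacaCCCCttatCCCCatactagt

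Reads in clusters numbered between 3252800 and 6216226 per library. *NEAT1*, a long noncoding RNA kept in the nucleus, had 226.4 and 203.8 reads per 1000000 reads in clusters (RPM) in the parental and *KRT19* KO cytoplasmic libraries and 789 and 1092 in the nuclear ones. *MALAT1*, another nuclear RNA, did not follow the labels: it had 1229 and 842 RPM in the cytoplasmic libraries and 888 and 548 in the nuclear ones. How far nuclear RNA was carried into the cytoplasmic fractions, or organelles into the nuclear ones, was not tested. *KRT19* itself had 7 and 5 reads in the cytoplasmic libraries and no cluster in the nuclear ones, too few to check the knockout.

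The mitochondrial share of reads was higher in both *KRT19* KO libraries than in their parental counterparts. It was 0.708% in the parental cytoplasmic library, from 39297 reads in 45 clusters, and 4.64% in the *KRT19* KO cytoplasmic library, from 288597 reads in 63 clusters. In the nuclear fraction it was 0.918% in parental cells (32469 reads, 47 clusters) and 3.72% in *KRT19* KO cells (120883 reads, 93 clusters). The *KRT19* KO share was thus 6.56 times the parental one in the cytoplasmic fraction (interval 6.49 to 6.63) and 4.05 times in the nuclear fraction (4.0 to 4.1). Both *KRT19* KO values lay above both parental values, but the 2 libraries of a line are different fractions and not replicates.

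Between fractions the difference was smaller and opposite in the 2 cell lines. The parental cytoplasmic share was 0.771 times the parental nuclear one (0.760 to 0.783), and the *KRT19* KO cytoplasmic share was 1.25 times the *KRT19* KO nuclear one (1.24 to 1.26). The parental direction turned when reads on nuclear copies of the mitochondrial genome were counted too: the parental shares then became 1.42% in the cytoplasmic and 1.21% in the nuclear library, a ratio of 1.17. The *KRT19* KO shares counted in this way were 6.67% and 4.35%, and remained above both parental values.

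**Figure D1:**
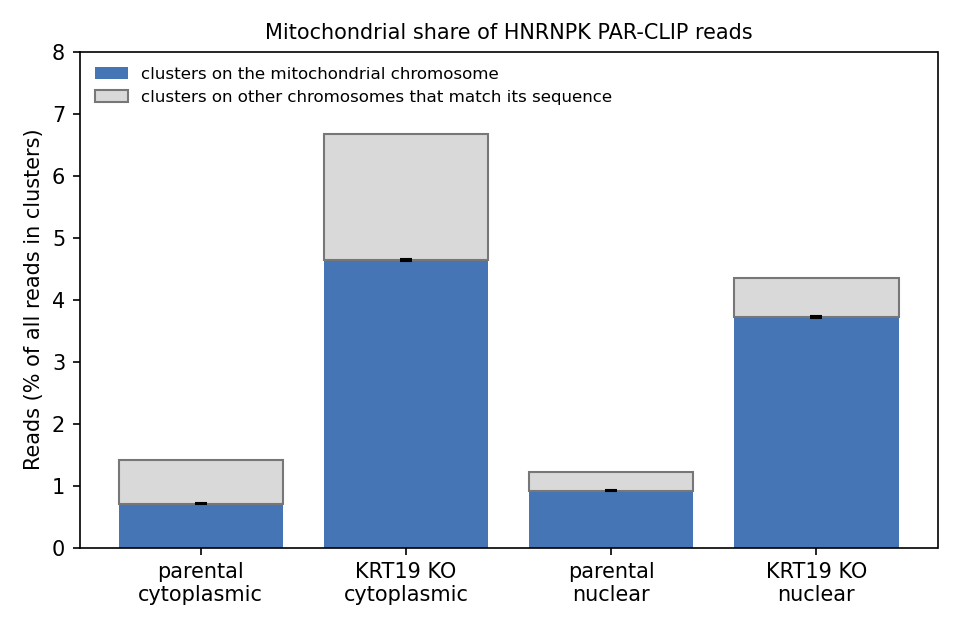
Share of all reads in clusters (%, vertical axis) in each of the 4 libraries. Blue bars are clusters on the mitochondrial chromosome, with exact 95% intervals as thin black bars, and grey bars on top are clusters on other chromosomes whose sequence matches it; the *KRT19* KO bars (4.64% and 3.72% in blue) stand above the parental bars (0.708% and 0.918%).

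Most of the grey reads lay at 1 place, which held 93.5%, 98.2%, 79.9% and 87.0% of them in the usual order. On chromosome 3, within or beside the copy *MTRNR2L12*, a cluster of about 40 nt on the minus strand matched the part of the large rRNA gene MT-RNR2 at chrM:1710-1754. It held 36909 reads in parental and 123973 in *KRT19* KO cytoplasm, and 8387 reads in parental and 17961 in *KRT19* KO nuclei. It ranked 1 among all clusters of the *KRT19* KO cytoplasmic library and no lower than 5 in any other. The deposited tables gave it the name *MTRNR2L12* in the *KRT19* KO cytoplasmic and parental nuclear libraries only, and no gene name in the other two, so that a count by gene name missed it there.

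The cluster and its mitochondrial counterpart are shown because so many reads turned on them. Capitals mark the bases at which they differ.
MT-RNR2, chrM:1710-1739, plus strand: aCaaccttaGccaaaccatttacccaaata
MTRNR2L12, chr3:96337011-96337040, minus strand: aTaaccttaAccaaaccatttacccaaata
Counted from 1 at the 5′ end of the windows, with the mitochondrial base first, the differences were C2T and G10A, and no others were found over the 44 nt of the longest cluster. At the first, the nuclear copy has T and the mitochondrial sequence C. A mitochondrial read placed on the copy would there be counted as a T-to-C change without any crosslink. The clusters of the parental nuclear and *KRT19* KO nuclear libraries, which began 2 nt further in, differed from the mitochondrial sequence at 1 base. No library had a cluster on the mitochondrial chromosome itself over these bases. Whether the reads came from the mitochondrial rRNA or from the copy was not tested. The T-to-C share at this place was 64.7%, 69.01%, 43.7% and 63.6% in the usual order.

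By gene name, 14 of the 37 mitochondrial genes had a cluster in at least 1 library. These were both rRNA genes, 11 of the 13 protein genes and 1 tRNA gene. Of the protein genes, 9 had a cluster in all 4 libraries. MT-ND6, the complex I subunit encoded on the minus strand, and MT-ATP8, a subunit of the ATP synthase, had no cluster under their names in any library. The nuclear copy *MTATP8P1* had a cluster in all 4 libraries, with 148, 186, 85 and 61 reads in the usual order. The parental and *KRT19* KO cytoplasmic ones matched MT-ATP8 in sense at 94.9% and 95.5% identity. The other 21 tRNA genes had no cluster under their names either. The single tRNA cluster, on MT-TI (isoleucine), held 63 reads in the parental cytoplasmic library.

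The reads were concentrated in few clusters. The largest cluster alone held 26.8%, 35.8%, 35.5% and 31.2% of the mitochondrial reads in the usual order. The 5 largest held 86.3%, 92.5%, 77.0% and 74.0%. A typical mitochondrial cluster had a median of 66 to 73 reads, against 10 or 11 for clusters on other chromosomes, and was also longer: 47, 50, 41 and 31 nt against 28, 28, 29 and 25 nt.

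Among clusters on the mitochondrial chromosome, ribosomal RNA was the most prominent class in the cytoplasmic libraries and nearly absent in the parental nuclear one. It took 60.1% of mitochondrial reads in the parental cytoplasmic (23604 reads), 68.2% in the *KRT19* KO cytoplasmic (196919), 0.148% in the parental nuclear (48) and 20.6% in the *KRT19* KO nuclear library (24905). Protein-coding genes took 37.6%, 31.0%, 89.5% and 77.4% in the same order. The *KRT19* KO cytoplasmic values depend on the name of a single cluster. That cluster, chrM:3108-3822, was 715 nt long, held 103402 reads and was named MT-RNR2, but only 122 of its bases lie in MT-RNR2, against 75 in the leucine tRNA gene MT-TL1 and 516 (72.2%) in MT-ND1. The position reported as its mode, 3108, lies in MT-RNR2, and how its reads divide over these genes was not tested. Counted as MT-ND1, the cluster would leave 32.4% of the *KRT19* KO cytoplasmic reads to MT-RNR2 and raise the protein-coding share there to 66.9%. None of these shares counts the chromosome 3 place that matches MT-RNR2, with 36909, 123973, 8387 and 17961 reads in the usual order. In the parental nuclear library its 8387 reads stand against 48 named rRNA reads. Class shares with that place added were not computed.

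**Figure D2:**
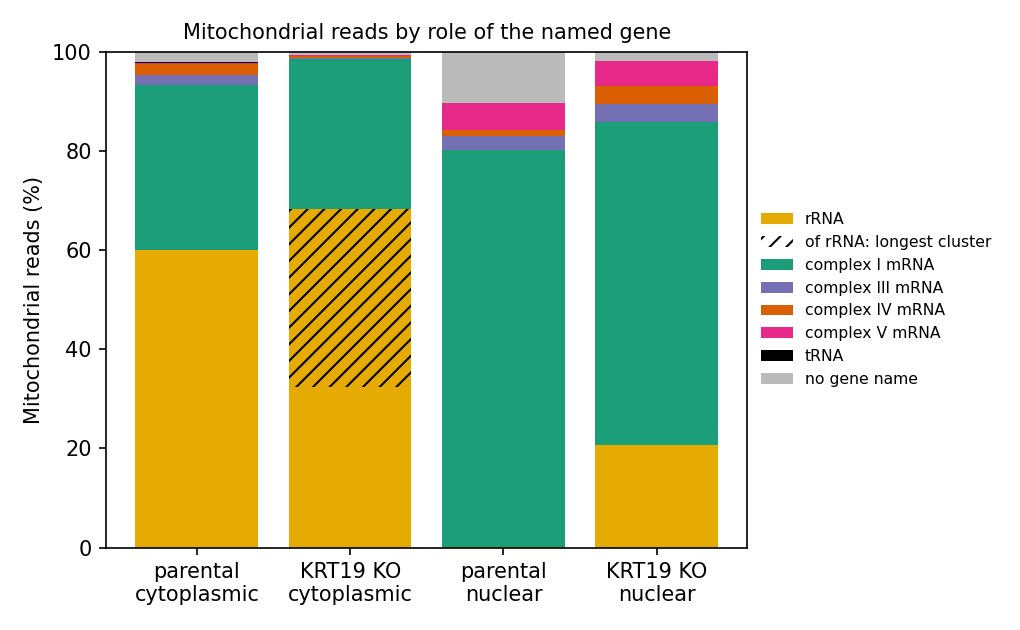
Percent of mitochondrial reads (vertical axis) by the role of the gene named for the cluster, in each library. The hatched part of the *KRT19* KO cytoplasmic bar is the 715-nt cluster named MT-RNR2; rRNA makes 60.1% and 68.2% of the 2 cytoplasmic bars, 0.148% of the parental nuclear bar and 20.6% of the *KRT19* KO nuclear bar.

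MT-RNR2, the large subunit rRNA, accounted for nearly all rRNA reads. It had 4252 RPM in the parental cytoplasmic, 31678 in the *KRT19* KO cytoplasmic and 7512 in the *KRT19* KO nuclear library, and no cluster in the parental nuclear one. These levels leave out the matching chromosome 3 place, which had 6648, 19943.5, 2371 and 5522 RPM in the usual order. By deposited name MT-RNR2 had the most reads of all 12928 named genes in the *KRT19* KO cytoplasmic library. With the 715-nt cluster counted as MT-ND1 it ranked 3 there, with 93517 reads, behind *MTRNR2L12* (124045) and MT-ND1 (103536). Its share was 7.45 times higher in *KRT19* KO than in parental cytoplasm (7.35 to 7.55), or 3.54 times (3.49 to 3.59) with the 715-nt cluster counted as MT-ND1. MT-RNR1, the small subunit rRNA, had clusters under its name in the nuclear libraries only, with 48 reads in parental and 471 in *KRT19* KO cells. These counts leave out a parental nuclear cluster off the mitochondrial chromosome, named AC105402.4, with 211 reads. It matched the plus strand at chrM:687-740, inside MT-RNR1, at 98.1% identity.

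Within MT-RNR2 the cell lines differed in where the reads lay. The site at chrM:2191-2464 held 81079 reads in the *KRT19* KO cytoplasmic and 22440 in the *KRT19* KO nuclear library, and neither parental library had a cluster there. The site at chrM:2025-2107 was instead present in both cytoplasmic libraries, with 9699 reads in parental and 7223 in *KRT19* KO cells, and with 1646 in the *KRT19* KO nuclear library. The neighbouring site at chrM:1967-2015 held 2806, 3918 and 59 reads in these same libraries. At chrM:3068-3140, near the end of the gene, the parental cytoplasmic library had its largest mitochondrial cluster, with 10520 reads. The reference has no defined base at position 3107, within that cluster, and 2 clusters of the *KRT19* KO libraries began right after it.

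**Figure D3:**
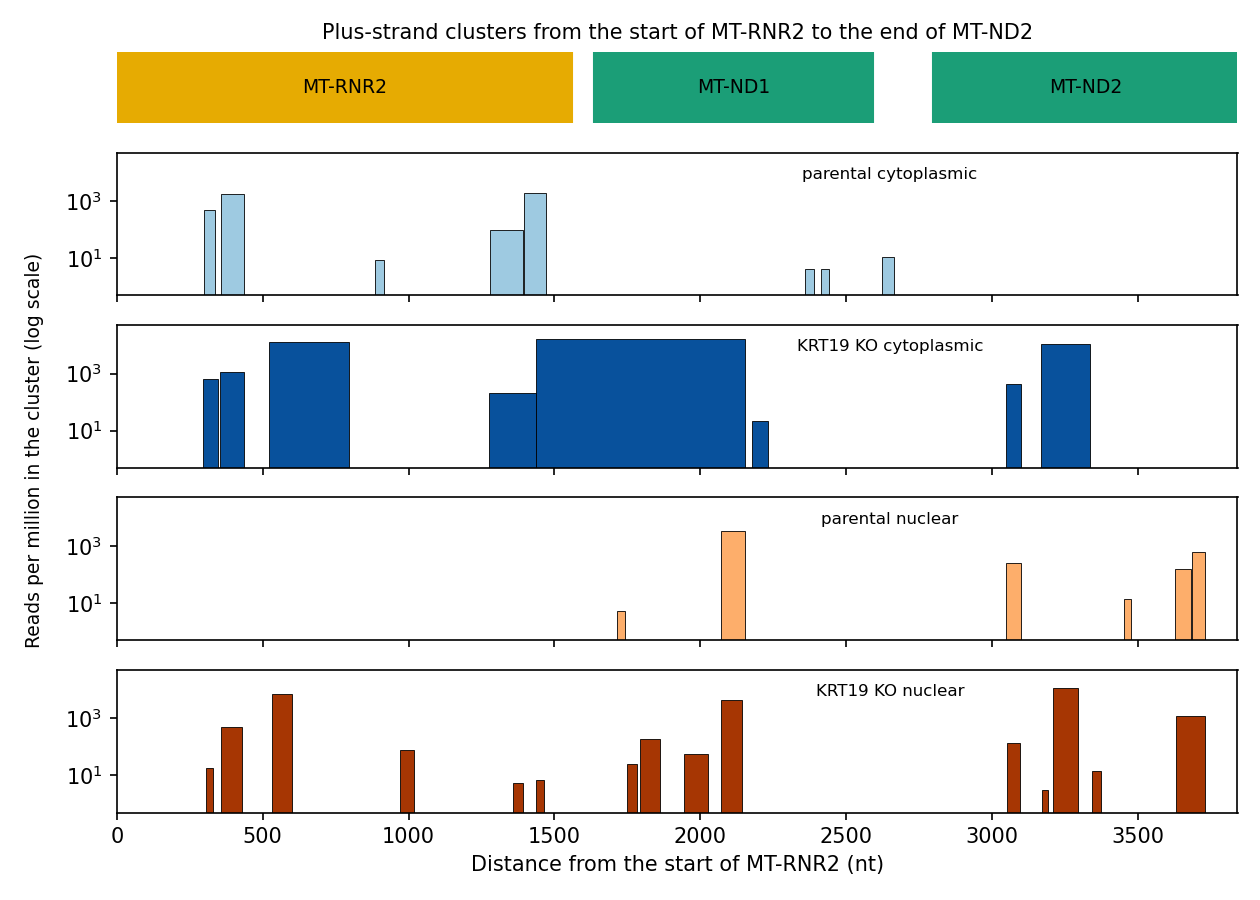
Plus-strand clusters along MT-RNR2, MT-ND1 and MT-ND2, with the distance in nt from the start of MT-RNR2 on the horizontal axis and RPM in each cluster on a log scale, 1 panel per library. The 715-nt cluster of the *KRT19* KO cytoplasmic library reaches from the end of MT-RNR2 into MT-ND1 and ends where the nuclear libraries have their MT-ND1 site; the MT-ND2 site with the most reads appears in the 2 *KRT19* KO panels only.

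Subunits of complex I, the NADH dehydrogenase at the entry of the respiratory chain, took most protein-coding reads: 33.2%, 30.2%, 80.04% and 65.2% of mitochondrial reads in the usual order. MT-ND2 was past 2-fold toward the *KRT19* KO line in either fraction. It had no cluster in the parental cytoplasmic library, 67698 reads in the *KRT19* KO cytoplasmic, 3788 in the parental nuclear and 42100 in the *KRT19* KO nuclear library. In the nuclear fraction its share was 12.1 times higher in *KRT19* KO cells (11.7 to 12.5). It was the named gene with the most reads in the *KRT19* KO nuclear library. Nearly all of this came from the site at chrM:4837-5007, with 65053 and 37772 reads in the *KRT19* KO cytoplasmic and nuclear libraries and no cluster in either parental library. The nuclear copy *MTND2P28*, not counted here, had 153, 90, 406 and 86 reads in the usual order. Its parental cytoplasmic cluster matched chrM:4886-4920, inside that site. A second MT-ND2 site at chrM:5297-5400 was called in the nuclear libraries only, with 2822 reads in parental and 3823 in *KRT19* KO cells.

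MT-ND1 had few reads under its own name in the cytoplasm and many in the nuclear libraries. Clusters named MT-ND1 held 47 reads in parental and 134 in *KRT19* KO cytoplasm, and 11556 reads in parental and 15783 in *KRT19* KO nuclei. In the nuclear libraries most of them lay at nearly the same place, chrM:3740-3822 in parental cells (11538 reads) and chrM:3742-3814 in *KRT19* KO cells (14885 reads). The 715-nt cluster of the *KRT19* KO cytoplasmic library covers this place. With all of its reads, the *KRT19* KO cytoplasmic level would be 16656 RPM, 3.43 times that of the *KRT19* KO nuclear library. By name it was 0.00444 times. The mode of the cluster, position 3108, lies in MT-RNR2, and how many of its reads belong to MT-ND1 was not tested. The parental cytoplasmic level, 8.47 RPM against 3267 in the parental nuclear library, does not depend on that cluster.

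MT-ND4 was the complex I subunit with the most even level. It had 1607, 1746, 2667 and 2025 RPM in the usual order. Its *KRT19* KO share was 1.09 times the parental one in the cytoplasmic fraction (1.06 to 1.12) and 0.759 times in the nuclear fraction (0.736 to 0.784), below the 2-fold limit used here. A site at chrM:11048-11127 was called in all 4 libraries, with 8626, 10307, 6574 and 2303 reads. A second site at chrM:11186-11342 appeared in the nuclear libraries only, with 2418 reads in parental and 3489 in *KRT19* KO cells.

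MT-ND3 was also found everywhere, with 262, 429, 161 and 390 RPM and a site at chrM:10202-10401 called in all 4 libraries. MT-ND5 had 473, 815, 104 and 3376 RPM, and its sites changed from library to library. In the nuclear fraction its *KRT19* KO share was 32.4 times the parental one (29.2 to 36.0). Its largest was chrM:12337-12476, with 8497 reads, in the *KRT19* KO nuclear library only. In the parental cytoplasmic library the largest was chrM:12663-12753 (2248 reads) and in the *KRT19* KO cytoplasmic one chrM:14086-14198 (2975 reads), each without a cluster there in the other 3 libraries. MT-ND4L had no cluster in the parental cytoplasmic library and 128 RPM in *KRT19* KO cytoplasm, against 77.2 RPM in parental and 652 in *KRT19* KO nuclei.

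Genes of the other complexes were read most in the *KRT19* KO nuclear library, with MT-CO2 as the exception. MT-CYB, the cytochrome b of complex III, had 145, 69.5, 257 and 1371 RPM in the usual order. Its *KRT19* KO share was 0.479 times the parental one in the cytoplasm (0.425 to 0.539) and 5.34 times in the nuclear fraction (4.97 to 5.74). Of the catalytic subunits of complex IV, the cytochrome c oxidase, MT-CO1 had 10.6, 31.4, 42.7 and 513 RPM and MT-CO3 had 40.2, 26.9, 56.0 and 645. The MT-CO1 values leave out clusters off the mitochondrial chromosome, named hsa-mir-6723, that match part of MT-CO1. These held 786, 950, 708 and 2050 reads in the usual order, against 59, 195, 151 and 1669 under the name MT-CO1. MT-CO2 had 101, 209, 8.48 and 161, highest in the *KRT19* KO cytoplasmic library. MT-ATP6, a subunit of the proton channel of the ATP synthase, had 14.2, 42.3, 504 and 1847 RPM. Its main site, chrM:8910-8959, held 1783 reads in the parental nuclear and 5811 in the *KRT19* KO nuclear library and was not called in the cytoplasmic libraries.

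Compared per length and by deposited name, MT-RNR2 stood first in the parental cytoplasmic and *KRT19* KO cytoplasmic libraries, with 2727 and 20320 RPM per kb. The *KRT19* KO place depends on the 715-nt cluster: counted as MT-ND1, it would put MT-ND1 first with 17422, MT-ND2 next with 10452 and MT-RNR2 after it with 9650. MT-ND1 stood first in the parental nuclear library with 3417, and MT-ND2 in the *KRT19* KO nuclear library with 12421. MT-CO1 was last by name among the protein genes in both cytoplasmic libraries, with 6.89 and 20.3, not counting the matching hsa-mir-6723 clusters. In the nuclear libraries MT-CO2 was last, with 12.4 and 236. Which neighbours in these orders differ beyond the spread between samples cannot be given with 1 library per condition.

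**Figure D4:**
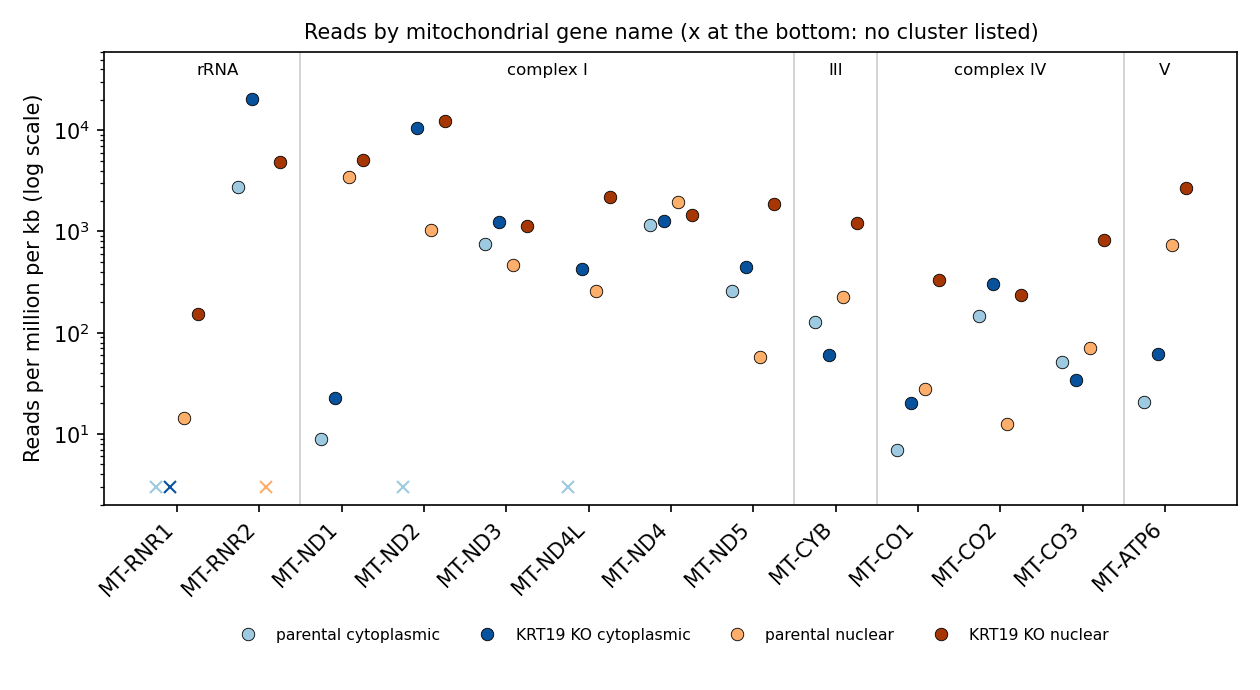
RPM per kb of gene (vertical axis, log scale) for the 2 rRNA genes and the 11 protein genes with a cluster, by deposited gene name, 1 point per library; a cross at the bottom means that no cluster was listed, not a measured 0. The *KRT19* KO nuclear points are the highest of the 4 libraries for MT-CYB, MT-CO1, MT-CO3 and MT-ATP6, and MT-ND4 has the narrowest spread of the complex I genes.

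Genes were then counted by whether their share of reads differed at least 2-fold, among genes with 100 or more reads in the pair of libraries. Between *KRT19* KO and parental cytoplasm, 7 of 12 mitochondrial genes were higher, where 19.6% of all 7783 genes were, and 1 was lower, MT-CYB, where 20.2% of all genes were. The 7 were MT-RNR2 and MT-ND1, MT-ND2, MT-ND4L, MT-CO1, MT-CO2 and MT-ATP6, among which MT-ND2 and MT-ND4L had no cluster in parental cytoplasm. The MT-CO1 call rests on 195 *KRT19* KO and 59 parental reads by name. It leaves out the matching hsa-mir-6723 clusters, with 950 and 786 reads. Between the nuclear fractions, 11 of 13 were higher in *KRT19* KO cells, where 11.2% of all 7349 genes were, and 0 were lower, where 15.7% were. The 2 that were not past 2-fold were MT-ND1 and MT-ND4. The MT-RNR1 call rests on 471 *KRT19* KO and 48 parental reads by name. It leaves out the matching AC105402.4 cluster, with 211 parental reads, and was not recomputed with it. No p-value was computed for any of these counts.

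Between fractions, more genes were called lower than higher in the cytoplasmic libraries, among all genes as among the mitochondrial ones. In parental cells 5 of 12 genes were at least 2-fold lower in the cytoplasmic library, where 31.3% of all 7766 genes were, namely MT-ND1, MT-ND2, MT-ND4L, MT-CO1 and MT-ATP6. Another 3 were higher there, where 19.1% of all genes were, namely MT-RNR2, MT-ND5 and MT-CO2. By deposited name, MT-CO1 and MT-CO2 of complex IV thus went opposite ways. The MT-CO1 call rests on 59 cytoplasmic and 151 nuclear reads. It leaves out the matching hsa-mir-6723 clusters, with 786 and 708 reads. In *KRT19* KO cells 8 of 13 were lower in the cytoplasmic library, where 38% of all 7688 genes were, and only MT-RNR2 was higher, where 26.1% were. The 8 were MT-RNR1, MT-ND1, MT-ND4L, MT-ND5, MT-CYB, MT-CO1, MT-CO3 and MT-ATP6. Of these, MT-ND1 with the 715-nt cluster counted to it would be higher, leaving 7. Taken as a sum, protein-coding RPM were 2662 in the parental cytoplasmic and 8214 in the parental nuclear library, a ratio of 0.324 (0.318 to 0.331). In *KRT19* KO cells they were 14409 and 28775, a ratio of 0.501 (0.496 to 0.505), which became 1.08 with the 715-nt cluster counted as MT-ND1.

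Fewer mitochondrial reads than other reads carried a T-to-C change in every library. The share was 44.99% of mitochondrial reads against 66.6% of all others in the parental cytoplasmic library and 42.5% against 60.4% in the *KRT19* KO cytoplasmic one. It was 44.9% against 73.1% in the parental nuclear and 39.5% against 78.1% in the *KRT19* KO nuclear library. Intervals of the mitochondrial shares were no wider than 44.4% to 45.5%. Among named genes of other chromosomes with 100 or more reads, only 160 of 5889, 91 of 5942, 78 of 5470 and 33 of 5097 had a lower share than the mitochondrial reads of the same library.

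Among clusters with many reads the gap was narrower in all libraries but the parental cytoplasmic one. Among clusters of 1000 or more reads the shares were 45.2% against 68.3% in the parental cytoplasmic and 42.4% against 52.5% in the *KRT19* KO cytoplasmic library, from 5 and 12 mitochondrial clusters. In the parental nuclear library they were 46.7% for 6 mitochondrial and 46.3% for 13 other clusters, and in the *KRT19* KO nuclear library 38.8% for 16 and 52.3% for 8. The other clusters include the chromosome 3 place that matches MT-RNR2, with 36909, 123973, 8387 and 17961 reads in the usual order. Its T-to-C shares were 64.7%, 69.01%, 43.7% and 63.6%. In *KRT19* KO nuclei the other clusters also include hsa-mir-6723, with 2050 reads. Shares without these matching clusters were not computed. The 6 clusters of the parental nuclear library include the minus-strand site at chrM:710-778, antisense to MT-RNR1, in which nearly every read was changed, and without it the other 5 gave 41.9%, below the other chromosomes (an alternative chosen after seeing the data). Single genes with 100 or more reads ranged from 21.2% (MT-ND4L, parental nuclear) to 57.5% (MT-ND1, *KRT19* KO cytoplasmic), and each lay below the share of the other chromosomes in its library.

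**Figure D5:**
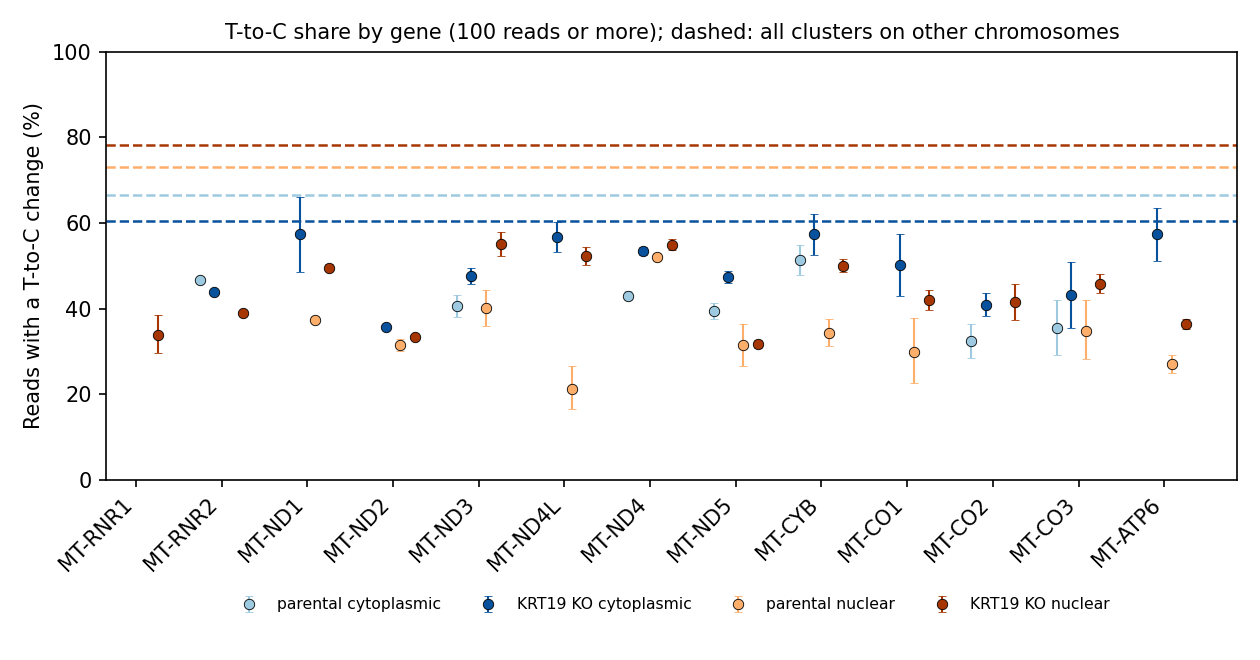
Percent of reads with a T-to-C change (vertical axis) for each mitochondrial gene with 100 or more reads, with exact 95% intervals, 1 point per library. Dashed lines of the same colour give all clusters on other chromosomes (66.6%, 60.4%, 73.1% and 78.1%), and each point lies below its own line.

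Clusters on the minus strand were 77 of the 248, and 0 of them lay in the sense direction of a gene, although 9 genes are encoded on that strand. Of these clusters, 73 ran antisense to a gene of the plus strand and 4 overlapped no gene. They were small: 12, 27, 13 and 25 clusters made 1.95%, 0.647%, 10.2% and 1.26% of mitochondrial reads in the usual order. The gene with the most antisense clusters was MT-ND4, with 14 clusters and 784 reads in all. MT-ND6 had no sense cluster, but 3 libraries had a plus-strand cluster against it. In the parental cytoplasmic library a cluster off the mitochondrial chromosome, with 819 reads, matched the plus strand at chrM:14570-14606, also against MT-ND6.

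The high parental nuclear value rested on 1 site. Antisense to MT-RNR1 at chrM:710-778, it held 2204 reads in the parental nuclear, 385 in the *KRT19* KO nuclear and 22 in the *KRT19* KO cytoplasmic library, and no cluster in the parental cytoplasmic one. A T-to-C change was counted in 2203, 384 and 22 of these reads, always at 1 conversion location. Other mitochondrial clusters of 100 or more reads reached a T-to-C share of 90% in 1 case, a minus-strand cluster at chrM:124-172 in the parental nuclear library with 286 reads and also 1 conversion location. The site is shown because its pattern differed from that of the rest, with the positions reported as its mode in capitals.
Antisense to MT-RNR1, chrM:735-764, minus strand: tgcttgatgcttgTTccttttgatcgtggt
The table counts any T-to-C mismatch to the reference, so that a 4SU change and a fixed base difference at this position cannot be told apart. Without the site, the minus-strand share of the parental nuclear library was 3.67% and the T-to-C share of its mitochondrial reads 40.9%.

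Merged over libraries where 1 nt or more overlapped on 1 strand, the clusters formed 153 sites. Of these, 103 were called in 1 library, 28 in 2, 16 in 3 and 6 in all 4, and the share seen in 1 library was 67.3% against 77.4% for other chromosomes. Of 24 mitochondrial sites with 1000 or more reads in total, 3 were called in all 4 libraries, against 514 of 1210 on other chromosomes. Among those 24, 10 were called in *KRT19* KO libraries only and 1 in a parental library only, where 4.88% and 2.15% of the 1210 sites on other chromosomes were. Split by fraction, 2 were called in cytoplasmic libraries only and 8 in nuclear libraries only, where 14.7% and 0.496% of the sites on other chromosomes were. The limit of 1000 reads can be reached through the *KRT19* KO libraries alone, which held more mitochondrial reads, so these counts do not compare the lines. Nor do they compare the fractions, since the limit can also be reached through 1 nuclear library. On other chromosomes, clusters of 1000 or more reads numbered 304 and 586 in the cytoplasmic but 13 and 8 in the nuclear libraries. Of all 153 sites, 80 were in *KRT19* KO and 35 in parental libraries only, and 49 in cytoplasmic and 63 in nuclear libraries only. Shares on other chromosomes without the limit were not computed. The *KRT19* KO libraries had 63 and 93 mitochondrial clusters and the parental ones 45 and 47. These counts of all sites therefore compare neither the lines nor the fractions.

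In base composition the plus-strand clusters resembled the strand they came from. Cytosine made 29.5%, 31.5%, 35.3% and 32.9% of their bases in the usual order, against 31.3% of the whole plus strand. The word CCC, counted on the strand of the cluster with overlapping matches, occurred 2.09, 3.35, 4.01 and 3.47 times per 100 nt, against 3.77 on the plus strand. Only in the parental nuclear library was CCC more frequent than over the whole strand. Clusters of other chromosomes, which come from RNA less rich in cytosine, had 2.66, 2.73, 3.11 and 3.51 CCC per 100 nt. Minus-strand clusters had 0.172, 0.284, 0.164 and 0.398 per 100 nt, against 0.435 on that strand.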

How the data were processed

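HNRNPK PAR-CLIP clusters of 4 libraries, 1 per condition, were analysed, and the 17 RNA-seq samples were not analysed here. According to the methods of the study, the authors demultiplexed reads with bcl2fastq (2.20.0) and cutadapt, removed duplicates with the help of molecular identifiers, aligned to hg19 and called and annotated clusters with PARalyzer in PARpipe. The submitters' processing notes list hg38, but 247 of 248 mitochondrial clusters equalled the GRCh37 sequence at their position, and the other differed only at the undefined base 3107. The deposited tables hold raw counts per cluster (all reads, distinct reads, reads with a T-to-C change), with no normalization and no cluster under 5 reads, so a missing cluster is no measured 0. The deposited fraction, score and log10 columns were not used. How reads that match several places were treated is not given in the sources used here.

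Reads in clusters served as library totals. Shares carry exact Clopper-Pearson intervals and ratios exact conditional binomial intervals at 95% (Python 3.11.15, scipy 1.17.1, pandas 2.3.3, numpy 2.4.6). These cover counting error only, and p-values were not computed. Gene names are those deposited, and positions of genes come from GENCODE. Clusters on other chromosomes of at least 25 nt, sharing 14 bases in a row with the mitochondrial sequence and at least 90% identical to it (edlib 1.3.9.post1), were counted as matching. The interval, overlap and merging code was tested on simulated data. All genes with a cluster were named by role, the 10 sites with the most reads and the main site of genes singly, and the nuclear copies with the most reads. Other sites were named after their values were seen. The members, lists and rules were chosen with earlier results of these data known.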

Additional observations from a re-analysis of the deposited data

Results flagged for a closer look

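In 5 cases the same contrast went opposite ways in the 2 fractions or the 2 cell lines, with counting intervals that did not include 1. With 1 library per condition the difference between the contrasts was not tested in any of them. The cases were taken by deposited name. How many genes of other chromosomes meet the same rule was not counted, so their number has no background beside it.

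Between cell lines, the *KRT19* KO share of MT-CYB was 0.479 times the parental one in the cytoplasmic fraction and 5.34 times in the nuclear fraction, and that of MT-CO3 0.669 and 11.52 times. For MT-ND4 the ratios were 1.09 and 0.759, both smaller than 2-fold. Between fractions, the cytoplasmic share of MT-ND5 was 4.53 times the nuclear one in parental cells and 0.242 times in *KRT19* KO cells. For all mitochondrial reads together the ratios were 0.771 in parental and 1.25 in *KRT19* KO cells, and the parental one rose above 1 when reads on matching nuclear sequence were added.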

How the results depend on the processing

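Libraries are given in the order parental cytoplasmic, *KRT19* KO cytoplasmic, parental nuclear, *KRT19* KO nuclear, and ratios in the order *KRT19* KO over parental cytoplasmic, the same nuclear, cytoplasmic over nuclear in parental and in *KRT19* KO cells. Of 135 values recomputed under alternatives, 59 stayed within the counting interval or 1.5 times a gene count, 75 moved and 1 reversed. The reversed value was the parental ratio between fractions, 1.17 with all matching clusters added (an alternative chosen after seeing the data). The *KRT19* KO share stayed above the parental one in both fractions under every alternative run.

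The mitochondrial shares were 0.803, 5.10, 1.09 and 4.52% with clusters of at least 10 reads; 0.519, 3.03, 0.594 and 2.59% without the largest cluster; 0.795, 4.33, 0.936 and 3.94% with distinct reads; 0.720, 6.66, 1.19 and 3.74% with named nuclear copies added and 1.42, 6.67, 1.21 and 4.35% with all matching clusters added. The ratios were 6.35, 4.13, 0.735 and 1.13 with clusters of at least 10 reads, 5.83, 4.36, 0.875 and 1.17 without the largest cluster, 5.45, 4.21, 0.849 and 1.10 with distinct reads, 9.25, 3.15, 0.607 and 1.78 with named copies, 4.70, 3.58, 1.17 and 1.53 with all matching clusters and 6.91, 3.38, 0.847 and 1.73 with T-to-C reads only.

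The T-to-C shares were 43.1, 41.8, 49.1 and 43.0% without the largest cluster and 48.4, 51.6, 41.3 and 51.6% with equal weight per cluster, and 40.9% in the parental nuclear library without the largest minus-strand site. The rRNA shares were 45.5, 50.5, 0.229 and 29.96% without the largest cluster and 63.0, 69.3, 0.287 and 19.8% with distinct reads, and 32.4% in the *KRT19* KO cytoplasmic library with its 715-nt cluster counted as MT-ND1, chosen after seeing the data. The minus-strand shares were 2.66, 1.01, 15.8 and 1.84% without the largest cluster; with distinct reads 0.740% in the *KRT19* KO cytoplasmic and 6.54% in the parental nuclear library; and 3.67 and 0.949% in the nuclear libraries without the largest minus-strand site, also chosen after seeing the data. The number of genes higher in *KRT19* KO cytoplasm than nucleus became 2 without the largest cluster and 2 with the 715-nt cluster as MT-ND1, and the number lower in *KRT19* KO than parental cytoplasm became 2 with at least 20 reads in the pair. Except where the construction of the alternative shows it, the cause was not tested.

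No paired analysis was possible because the replicate numbers in the labels belong to RNA-seq samples not analysed here, and the PAR-CLIP libraries have 1 sample per condition. Depth limits small genes most: MT-CO2 in the parental nuclear library rests on 30 reads and MT-ND1 in the parental cytoplasmic on 47.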

Other observations

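Further clusters off the mitochondrial chromosome matched it. Clusters named hsa-mir-6723 were singled out after their values were seen. They matched the plus strand within chrM:6201-6241, inside MT-CO1, at 97.2% to 97.5% identity. These clusters held 786 reads in the parental cytoplasmic, 950 in the *KRT19* KO cytoplasmic, 708 in the parental nuclear and 2050 in the *KRT19* KO nuclear library. The MT-CO1 levels and 2-fold calls above do not count these reads and were not recomputed with them. In all, 34, 41, 21 and 23 clusters matched in these libraries, with 39485, 126208, 10495 and 20652 reads. The share of distinct reads among all reads was similar on and off the mitochondrial chromosome, with 34.6% and 30.8% in the parental cytoplasmic, 42.5% and 45.8% in the *KRT19* KO cytoplasmic, 20.4% and 19.98% in the parental nuclear and 20.1% and 19.0% in the *KRT19* KO nuclear library.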
